A study of Rattus norvegicus with 4 samples.

Results

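The secreted ligands of the transforming growth factor beta (TGF-beta) family are described here in cultured heart cells, through the footprints of ribosomes on their open reading frames (ORFs). They are 10 genes taken by name: the TGF-betas Tgfb1, Tgfb2 and Tgfb3, the activin chains Inhba and Inhbb, Gdf15, and the bone morphogenetic proteins (BMPs) Bmp2, Bmp4, Bmp6 and Bmp10. Every listed ORF of these genes was taken, which gave 16 of the 18847 ORFs in the table, for 10 of its 14407 gene names. Of the 16 ORFs, 10 were annotated protein-coding ORFs, 1 per gene. A further 4 lay upstream of the annotated ORF in the same transcript (upstream ORFs) and 2 started upstream and ran into it (overlapping upstream ORFs). The annotated ORF stands for the gene below unless an upstream ORF is named. All 10 annotated ORFs and 3 of the 4 upstream ORFs passed the filter on low counts.

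The cells were ventricular cardiomyocytes of Sprague-Dawley rats at postnatal day 2, grown in medium with serum. Preplating for 1 h had been used to deplete other cells, so the cultures can hold some of them. The treated group received phenylephrine (PE), an agonist of the α1-adrenergic receptor that is used to make such cells enlarge, at 20 µM for 24 h, and the control group was labelled as untreated, although a protocol field of the labels names PE for all 4 libraries. Each group had 2 ribosome profiling libraries, with 11446574 and 13827599 counts in control and 12117629 and 12537740 in PE. No genotype or transgene is given for either group, and the labels leave it unsaid whether the libraries of a group are separate cultures. The p-values therefore reflect the spread between libraries alone, which may be technical.

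Ribosome profiling sequences the short pieces of mRNA that ribosomes protect from nuclease, so a gene's count follows both the amount of its mRNA and how densely it is translated. These contributions were not separated, since no RNA-seq was used here. Counts are given as CPM, the count scaled to a common library size after TMM scaling, and as CPM per kilobase of ORF where genes are compared with each other.

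Ligands of this family are made as precursors, cut by furin-like proteases, and secreted as dimers. TGF-betas are held latent in the matrix until they are released, while activins and BMPs are restrained by extracellular binding proteins such as follistatin, noggin and chordin. They signal through paired type I and type II receptor kinases to Smad proteins, with Smad2 and Smad3 downstream of TGF-betas and activins and Smad1, Smad5 and Smad9 downstream of BMPs. In the heart the family is known for its part in development, in the response to pressure load and in fibrosis.

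After PE, Tgfb2, Inhba, Inhbb and Bmp2 were higher, Bmp4 and Tgfb3 were lower, and Tgfb1, Gdf15, Bmp6 and Bmp10 did not pass the test. The p-values come from the quasi-likelihood test of edgeR, adjusted by Benjamini-Hochberg over all 12609 ORFs tested, with a threshold of 0.05, unless another source is named. Over all ORFs tested, 21.4% were called higher and 21.3% lower, so 42.7% were called in either direction, and the ligands' 4 higher and 2 lower of 10 should be read against those shares. At least a doubling was found for 2 of the 10 ligands, Inhba and Inhbb, against 3.5% of all ORFs tested. The control and PE libraries did not overlap for 8 of the 10 ligands, against 68.6% of all ORFs tested. The median log2 fold change was 0.14 over the ligands and 0.00 over all ORFs tested.

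**Figure D1:**
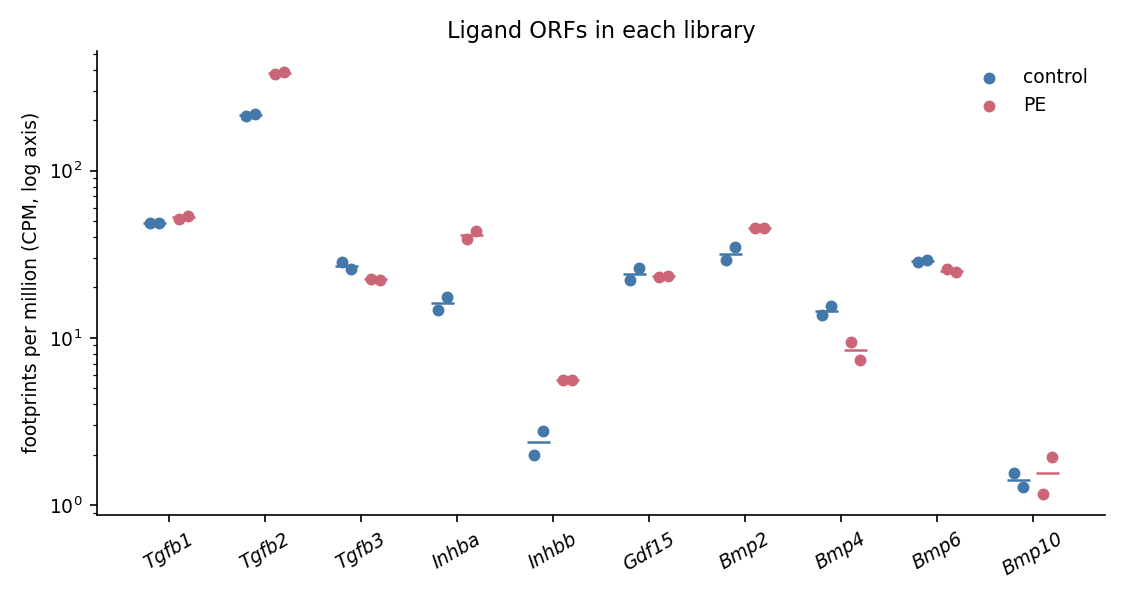
Footprints on the annotated ORF of each ligand, as CPM on a log axis, in the 2 control libraries (blue) and the 2 PE libraries (red), with the group mean as a line. Tgfb2 lies far above the other ligands in every library, PE points lie above the control points for Tgfb2, Inhba, Inhbb and Bmp2, and they lie below them for Tgfb3 and Bmp4.

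Cell type markers also moved between the same groups, most of them downward but not all. The background of each count below is 21.4% higher and 21.3% lower over all ORFs tested. The summed CPM of 11 fibroblast markers was 34947 and 35227 in control and 21152 and 21385 in PE, with 7 of the 10 tested markers lower and 1, Dcn, higher. That sum mostly shows Postn, Col1a1 and Col3a1. Of the others that were lower, Dpt had a log2 fold change of -1.85, and Pdgfra, Tcf21 and Ddr2 had -0.47, -0.29 and -0.17. Lum and Thy1 were not called. Of 10 endothelial markers tested 6 were lower and 1, Egfl7, was higher, with sums of 293 to 305 in control and 194 to 199 in PE. Of 11 macrophage and leukocyte markers tested 8 were lower, with sums of 667 to 694 in control and 439 to 448 in PE. Of 9 smooth muscle and pericyte markers tested 3 were higher (Cnn1, Cspg4 and Mcam, the last with only 0.0446 counts per P-site, the peptidyl-site position that places a footprint in a reading frame) and 6 lower, with sums of 2567 to 2606 in control and 2678 to 2712 in PE. Of 8 cardiomyocyte markers tested 1 was higher and 6 were lower, with sums of 55821 to 56068 in control and 49378 to 49743 in PE. Of those lower, Myh6 went from 6568 and 6617 CPM in control to 2616 and 2691 CPM in PE. Myh6 had only 0.190 counts per P-site, against a median of 1.17 over ORFs tested, so the fall in the sum is loosely measured. Of 9 atrial and trabecular markers tested 3 were higher (Nppa, Gja5 and Myl4) and 3 lower, with sums of 5357 to 5508 in control and 18296 to 18397 in PE. That sum mostly shows Nppa, which had 4973 and 4825 CPM in control and 17752 and 17870 CPM in PE. The median log2 fold change of the 9 was -0.46. None of these markers was at 0 in all libraries. The fibroblast marker Col1a2 had 2 counts in all but 158850 P-sites, so its count does not give its level. In these bulk libraries fewer cells of a type and less RNA per cell cannot be told apart. The part of the cell makeup in the ligand changes was not tested.

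TGF-beta 2 was the dominant ligand by footprints. Tgfb2, known for its role in heart valve and septum development, lies on chromosome 13 of Rnor_6.0 (chr13:105042283-105140472, minus strand; the interval runs from start to stop codon and includes introns). It had 212 and 216 CPM in the control libraries and 375 and 389 CPM in the PE libraries. Both PE libraries were far above both control libraries. The mean rose from 214 ± 3.00 to 382 ± 9.51 CPM (SD, n = 2 each), a log2 fold change of 0.83 ± 0.03 (SE; 95% interval 0.77 to 0.90) or 1.78-fold, with an edgeR adjusted p = 6.2e-21.

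Tgfb1, the isoform most often tied to fibrosis and immune control (chr1:82481020-82497057, plus strand), had 48.3 and 48.4 CPM in control and 51.5 and 53.6 CPM in PE. The PE libraries were above the control libraries by a small margin and the groups did not overlap. The log2 fold change of 0.12 ± 0.07 did not pass the test (edgeR adjusted p = 0.16), and its 95% interval of -0.02 to 0.26 stays far from a doubling.

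Tgfb3, an isoform needed for palate closure and made by many mesenchymal cells (chr6:109914739-109935135, minus strand), had 28.3 and 25.7 CPM in control and 22.6 and 22.3 CPM in PE. Both PE libraries were below both control libraries. It had a log2 fold change of -0.26 ± 0.10 (95% interval -0.47 to -0.06), with an edgeR adjusted p = 0.037. That call was lost without control replicate 1 (adjusted p = 0.22), without PE replicate 1 (0.088) and without PE replicate 2 (0.13). DESeq2 on the same counts did not make it either, with an adjusted p of 0.22.

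The makeup of the TGF-beta footprints moved with these changes. Tgfb2 held 73.5% (95% Wilson interval 72.0 to 75.0) and 74.5% (73.2 to 75.8) of the counts on the 3 TGF-beta ORFs in the control libraries. In the PE libraries it held 83.5% (82.5 to 84.5) and 83.7% (82.7 to 84.6). The intervals cover counting error only. After division by ORF length the share of Tgfb2 was 71.4% and 72.4% in control and 82.0% and 82.1% in PE. The share of Tgfb1 per length was 18.4% and 18.3% in control and 12.7% and 12.8% in PE, and that of Tgfb3 went from 10.2% and 9.22% to 5.29% and 5.04%. Tgfb2 thus took a larger share in each PE library than in either control library, and the shares of the other isoforms were smaller there. A share alone does not give a level: the CPM of Tgfb1 was not lower in either PE library, while that of Tgfb3 was lower in both.

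**Figure D2:**
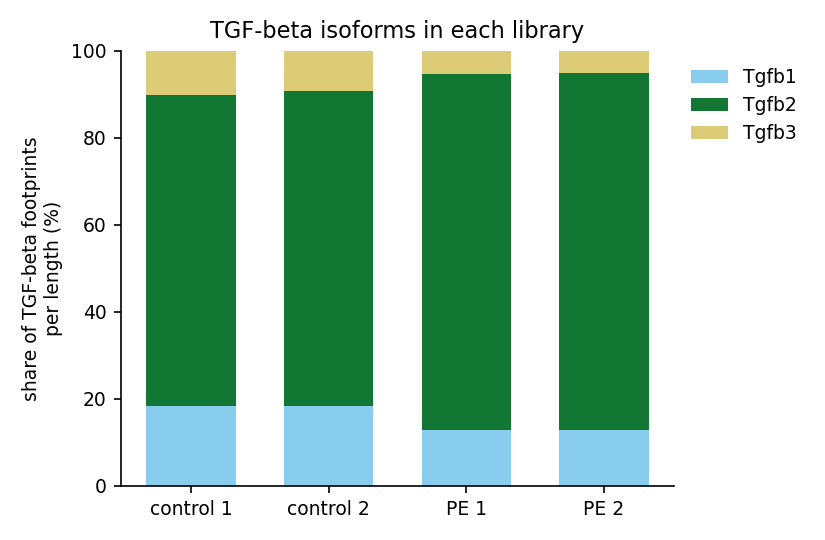
Share of TGF-beta footprints per ORF length (percent, stacked to 100) held by Tgfb1, Tgfb2 and Tgfb3 in each of the 4 libraries. Tgfb2 takes 71.4% and 72.4% in control and 82.0% and 82.1% in PE.

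Both activin chains rose. Inhba encodes the beta A chain, whose dimer is activin A (chr17:51899253-51909679, minus strand). It had 14.7 and 17.5 CPM in control and 38.9 and 43.5 CPM in PE. Each PE library was more than double either control library. The mean went from 16.1 ± 1.94 to 41.2 ± 3.26 CPM (SD, n = 2 each), with a log2 fold change of 1.35 ± 0.10 (95% interval 1.14 to 1.56), 2.54-fold and edgeR adjusted p = 8.9e-13. This was the highest fold among the 10 annotated ligand ORFs.

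Inhbb encodes the beta B chain, which forms activin B (chr13:35438427-35441916, minus strand). Its counts were low, 23 and 39 in control and 67 and 69 in PE, or 1.98 and 2.78 CPM against 5.60 and 5.61 CPM. The groups did not overlap. Inhbb had a log2 fold change of 1.21 ± 0.26 (95% interval 0.68 to 1.74), 2.32-fold with an edgeR adjusted p = 2.6e-04, and its interval is wider than that of Inhba, which had more counts. The listed Inhbb ORF of 915 nucleotides starts at nucleotide 307 of its transcript, while the annotated start is at nucleotide 1, so footprints on the first part of the coding sequence were not in its count.

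Which dimers can form depends also on Inha, the alpha chain that pairs with either beta chain to make inhibins, which oppose activins. Inha had 9.39 and 9.56 CPM in control and 60.5 and 66.7 CPM in PE. The change, 2.75 ± 0.10 on the log2 scale (6.71-fold, edgeR adjusted p = 2.7e-21), had a value above that of either beta chain. On the per-length scale, Inha stood at 0.738 and 0.634 of the Inhba level in the control libraries and at 1.80 and 1.78 in the PE libraries. The alpha chain was therefore below beta A in control and above it in PE, by footprints per kilobase. The ratio of Inhba to Inhbb per length was 5.35 and 4.52 in control and 4.99 and 5.58 in PE, and these ranges overlapped. The ratios were computed after the values were seen and are given as a description. Footprints do not measure secreted protein or dimers.

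Gdf15, a distant member of the family that is released under cellular stress and acts on appetite through the receptor GFRAL in the brainstem (chr16:20555395-20557978, plus strand), had 22.1 and 26.2 CPM in control and 23.2 and 23.3 CPM in PE. Both PE values lay between the control values. The log2 fold change was -0.06 ± 0.11 with an edgeR adjusted p = 0.71, and its 95% interval of -0.27 to 0.16 holds neither a doubling nor a halving.

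The BMPs did not share a direction. Bmp2, which drives cushion formation in the embryonic heart (chr3:126337293-126344687, plus strand), had 29.0 and 34.8 CPM in control and 45.6 and 45.5 CPM in PE. Both PE libraries were above both control libraries. Bmp2 had a log2 fold change of 0.51 ± 0.08 (95% interval 0.33 to 0.68), 1.42-fold, with an edgeR adjusted p = 9.5e-06.

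Bmp4, the close relative of Bmp2 and a ligand for the same receptors (chr15:20776386-20778615, minus strand), went the other way. It had 13.6 and 15.5 CPM in control and 9.45 and 7.40 CPM in PE, with counts of 158 and 217 against 113 and 91. Both PE libraries were below both control libraries. Its log2 fold change was -0.79 ± 0.15 (95% interval -1.10 to -0.49), with an edgeR adjusted p = 5.9e-05. Per length, Bmp2 was 2.21 and 2.33 times as high as Bmp4 in control and 5.00 and 6.37 times in PE.

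Bmp6, a BMP known for the control of hepcidin and iron in the liver (chr17:26955142-27112820, minus strand), had 28.4 and 29.3 CPM in control and 25.7 and 24.7 CPM in PE. The PE libraries were the lower ones and the groups did not overlap. The log2 fold change of -0.20 ± 0.10 missed the threshold (edgeR adjusted p = 0.10), and it passed when library totals replaced TMM scaling, at -0.24 with an adjusted p of 0.042.

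Bmp10, a ligand of the developing heart's trabeculae and later of the right atrium (chr4:119225077-119230534, plus strand), was close to the limit of detection, with 18 and 18 counts in control and 14 and 24 in PE. The libraries of the groups overlapped. The log2 fold change was 0.15 ± 0.41 with an edgeR adjusted p = 0.81, and the 95% interval of -0.69 to 0.99 reaches nearly to a doubling, so smaller changes were not detectable at this depth.

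**Figure D3:**
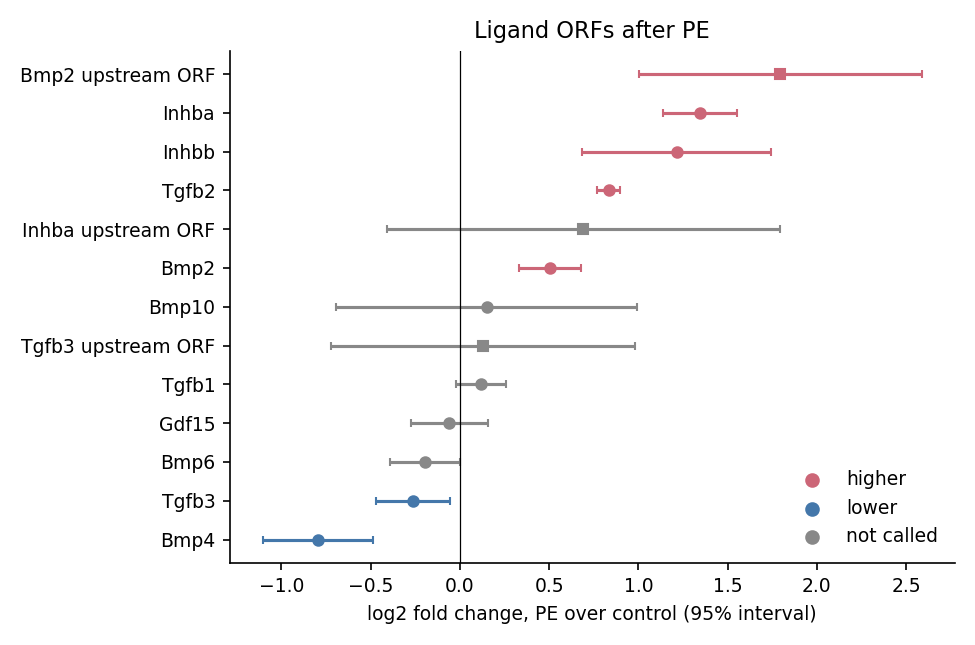
Log2 fold change of PE over control with its 95% interval for the 13 tested ligand ORFs, circles for annotated ORFs and squares for upstream ORFs, coloured by the edgeR call. Inhba at 1.35 and Bmp4 at -0.79 are the extremes among annotated ORFs, and the intervals of Bmp10 and of the 3 upstream ORFs are wider than those of the other annotated ORFs.

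The order of ligand levels was read from CPM per kilobase. In control it ran from Tgfb2 (162 ± 2.26, SD, n = 2) through Tgfb1 (41.3 ± 0.0224), Bmp2 (27.0 ± 3.46), Gdf15 (26.5 ± 3.21), Tgfb3 (21.8 ± 1.47), Bmp6 (19.0 ± 0.415), Inhba (12.7 ± 1.53), Bmp4 (11.9 ± 1.08) and Inhbb (2.60 ± 0.619) to Bmp10 (1.30 ± 0.173). Neighbours whose libraries overlapped were Bmp2 with Gdf15, and Inhba with Bmp4. In PE the order was Tgfb2 (288 ± 7.17), Tgfb1 (44.9 ± 1.30), Bmp2 (38.6 ± 0.0787), Inhba (32.4 ± 2.56), Gdf15 (25.6 ± 0.0662), Tgfb3 (18.1 ± 0.173), Bmp6 (16.6 ± 0.485), Bmp4 (6.88 ± 1.18), Inhbb (6.12 ± 0.00523) and Bmp10 (1.43 ± 0.505), where Bmp4 and Inhbb overlapped. Inhba thus moved up the order, from just above Bmp4 in control to just below Bmp2 in PE.

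Against all 11402 annotated ORFs tested, on the mean CPM per kilobase over the 4 libraries, Tgfb2 stood at the 94.5th percentile and Tgfb1 at the 75.2nd. Bmp2, Gdf15, Inhba, Tgfb3 and Bmp6 stood between the 55.2nd and 69.5th, Bmp4 at the 40.0th, Inhbb at the 23.7th and Bmp10 at the 8.24th. The ligands thus covered nearly the whole range of footprint levels.

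Summed over the 10 annotated ORFs, the ligands had 400 and 418 CPM in control and 599 and 617 CPM in PE. The TGF-betas went from 289 and 291 to 450 and 465 CPM and the activin chains from 16.7 and 20.3 to 44.5 and 49.1 CPM. The BMPs stayed within 72.6 to 80.9 CPM in control and 79.6 to 82.0 CPM in PE, with overlapping libraries. Tgfb2 alone held 53.0% and 51.8% of all ligand CPM in control and 62.7% and 63.1% in PE, so the sum mostly shows Tgfb2.

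Upstream ORFs were listed for Bmp2, Tgfb3, Inhba and Bmp4. A short ORF ahead of a coding sequence is translated before it and is known to be able to lower translation of the main ORF. The Bmp2 upstream ORF of 60 nucleotides (chr3:126336169-126336231, plus strand) had 8 and 15 counts in control and 33 and 43 in PE, or 0.689 and 1.07 CPM against 2.76 and 3.49 CPM. Both PE libraries were more than double either control library. Its log2 fold change was 1.80 ± 0.39 (95% interval 1.00 to 2.59), 3.47-fold with an edgeR adjusted p = 3.0e-04. Of its 66 P-sites, 90.9% were in its own frame.

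The Bmp2 upstream ORF thus rose beside the annotated ORF of the same gene. Its counts equalled 2.37% and 3.07% of those on the annotated ORF in control and 6.04% and 7.68% in PE. The log2 fold change of the upstream ORF exceeded that of the annotated ORF by 1.29 ± 0.36 (95% interval 0.52 to 2.06), but this difference did not pass the test over all 671 pairs of an upstream and an annotated ORF (edgeR adjusted p = 0.12, unadjusted p = 0.0028). Among those pairs 1.19% were called with the upstream ORF more positive and 0% with it more negative, and neither share includes a ligand. The Bmp2 difference passed without the library term (1.29, edgeR adjusted p = 0.019), a fit that ignores that both ORFs are counted in the same library. It did not pass with a count minimum of 5 (1.29, edgeR adjusted p = 0.21). With a library left out, the difference was 1.15 without control replicate 1, 1.51 without control replicate 2, 1.45 without PE replicate 1 and 1.11 without PE replicate 2. The call differed between these fits, each of which leaves 1 library in a group.

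The Tgfb3 upstream ORF of 96 nucleotides had 11 and 29 counts in control and 25 and 16 in PE, and the Inhba upstream ORF of 135 nucleotides had 4 and 13 in control and 11 and 15 in PE. Libraries overlapped between the groups for each. The Tgfb3 upstream ORF had 64.4% of its 59 P-sites in frame and the Inhba one 85.7% of 28, against 84.7% over all ORFs. The log2 fold changes were 0.13 ± 0.42 (95% interval -0.72 to 0.98, edgeR adjusted p = 0.84) for Tgfb3 and 0.69 ± 0.54 (-0.41 to 1.79, adjusted p = 0.32) for Inhba. The Inhba upstream ORF held 2.34% and 5.31% of the annotated ORF's counts in control and 2.37% and 2.80% in PE, and the difference from the annotated ORF, -0.65 ± 0.51 (95% interval -1.74 to 0.45), was not called (adjusted p = 0.63). For Tgfb3 the upstream share was 3.35% and 8.06% in control and 9.26% and 5.84% in PE, with a difference of 0.39 ± 0.45 (-0.57 to 1.35, adjusted p = 0.74). For these differences, the Inhba interval reaches beyond a halving and the Tgfb3 interval beyond a doubling. The counts thus leave the upstream shares loosely fixed.

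**Figure D4:**
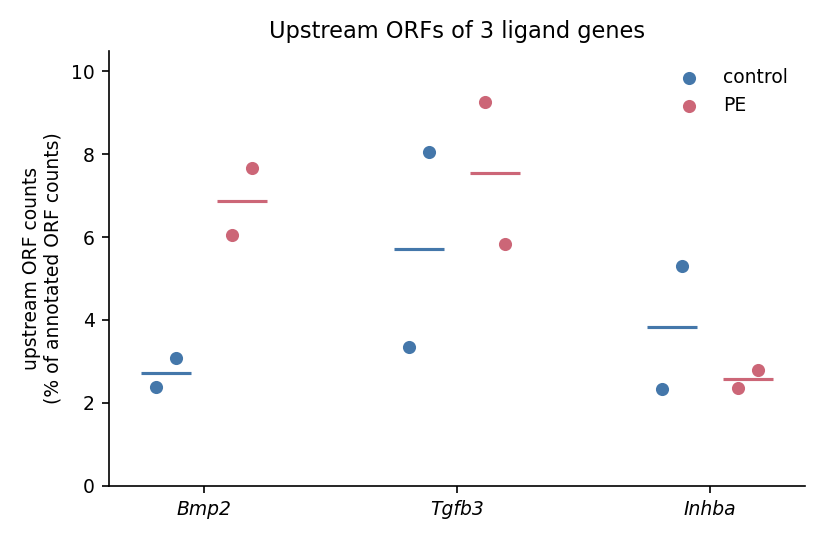
Counts on the upstream ORF as a percentage of counts on the annotated ORF of the same gene, per library (points) with the group mean (line), for Bmp2, Tgfb3 and Inhba. The PE points lie above the control points for Bmp2, at 6.04% and 7.68% against 2.37% and 3.07%, and the groups overlap for Tgfb3 and Inhba.

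The other 3 ligand ORFs were too low to test. The Bmp4 upstream ORF of 177 nucleotides had 2 and 7 counts in control and 8 and 9 in PE, while the annotated Bmp4 ORF fell. The overlapping upstream ORF of Tgfb3 had 0 and 5 counts in control and 3 and 2 in PE. It had only 0.294 counts per P-site, and 47.1% of its 34 P-sites were in frame. The overlapping upstream ORF of Bmp4 had 0 counts in every library, although 81 P-sites were listed for it.

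The start of the Inhba upstream ORF could be placed in the sequence around the RefSeq start of Inhba (rat assembly GRCr8, which is not the build of the counts). RefSeq entries of these windows, which reach from upstream of a gene's start to a little past it, were matched by symbol for 9 of the 10 ligand genes, all but Bmp2. The start codon lies 69 bases upstream of the RefSeq start, within the stretch shown from chr17:53804563-53804589 on the minus strand, and 39 of the 45 residues of the listed ORF matched the translated window up to its end. It is shown because footprints were counted on this ORF, with its start codon in capitals.
Inhba upstream ORF start: tgagaggtaccaATGtgtgagtgtaca

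The windows were also searched on both strands for 5 short motifs, given with the share of all 33469 RefSeq windows of the same length that hold each. They were the E-box CACGTG (6.42%), the cyclic AMP response element-like TGANGTCA (10.2%), the AP-1 motif TGANTCA (7.33%), the TATA motif TATAAA (14.2%) and the GC box GGGCGG (33.1%), and no motif contains another. The E-box was in the windows of Tgfb2, which rose, and Bmp4, which fell. The TGANGTCA motif was in that of Inhba alone among the ligands, the TATA motif in those of Inhba and Gdf15, the GC box in those of Bmp4, Bmp6, Gdf15 and Inhbb, and the AP-1 motif in none. No motif searched was in the windows of all 3 risen ligands that have one, Tgfb2, Inhba and Inhbb. Some of the matches are shown with the motif in capitals, at chr13:100792897-100792926 (minus strand, 229 bases upstream of the start), chr15:22101988-22102017 (minus strand, 72 bases upstream), chr17:53804623-53804652 (minus strand, 133 bases upstream) and chr17:53804531-53804560 (minus strand, 40 bases upstream, within the upstream ORF). The other matches, among them a further TGANGTCA match of Inhba and the GC boxes of Inhbb and Bmp4, are not shown. A match is a description of letters, not evidence of a bound site.
Tgfb2 E-box: cactcatccacaCACGTGtggaaggcaggg
Bmp4 E-box: ggcctctgggtcCACGTGactcctaggggc
Inhba TGANGTCA: gagtcatctgcTGATGTCAtgctgattcta
Inhba TATA motif: taagtactacagTATAAAacttcacagtgc

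The other genes of the pathway were counted by role, in lists drawn up from known roles. The shares over all ORFs tested, 21.4% higher and 21.3% lower, are the background of each of these counts, and nothing particular to a list is read from them. Among 23 other ligands of the superfamily, 9 had a listed ORF and 5 were tested, with Inha and Bmp7 higher, Bmp3 lower and Gdf11 and Gdf6 not called. Bmp7, which often pairs with Bmp2 or Bmp4 chains, went from 35.2 and 31.2 CPM in control to 44.9 and 51.7 CPM in PE (log2 fold change 0.55 ± 0.08, edgeR adjusted p = 2.5e-06). Bmp3, an atypical BMP that restrains the others, went from 62.5 and 61.6 to 27.8 and 26.8 CPM (-1.18 ± 0.08, adjusted p = 8.8e-15).

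Of 16 receptors, 12 were tested, with 2 higher, 3 lower and 7 not called, a called share close to the 42.7% of all ORFs tested. The type I activin receptor Acvr1b rose with the activin chains, from 74.4 and 75.1 to 122 and 118 CPM (log2 fold change 0.68 ± 0.05, edgeR adjusted p = 4.3e-13). The type II activin receptor Acvr2b fell from 4.74 and 4.21 to 1.59 and 2.03 CPM (-1.29 ± 0.29, adjusted p = 4.9e-04), while Acvr2a, its much higher relative, was at 57.4 and 54.5 CPM in control and 52.9 and 52.1 CPM in PE and was not called. For the TGF-betas, the type II receptor Tgfbr2 fell from 190 and 194 to 123 and 128 CPM (-0.61 ± 0.04, adjusted p = 3.8e-14). Tgfbr3, the co-receptor that presents TGF-beta 2 to it, fell from 303 and 279 to 180 and 187 CPM (-0.66 ± 0.04, adjusted p = 5.2e-16). Tgfb2 footprints thus rose where those of its receptor and co-receptor fell. The type I receptor Tgfbr1 had only 0.104 counts per P-site, against a median of 1.17 over ORFs tested, and its value of -0.13 ± 0.27 was not called. The BMP type II receptor Bmpr2 rose from 129 and 126 to 166 and 164 CPM (0.37 ± 0.04, adjusted p = 5.6e-09), and the type I receptors Bmpr1a and Acvr1 were not called, at 0.08 ± 0.07 and -0.02 ± 0.06.

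Of 23 genes of latency, processing and activation, 20 were tested, with 10 higher, 7 lower and 3 not called. The furin protease, which cuts the precursors, rose by a log2 fold change of 0.47 ± 0.05. Of the related proteases, Pcsk5 was lower at -0.62 ± 0.07, and Pcsk6 and Pcsk7 were not called, at 0.13 ± 0.07 and -0.18 ± 0.14. The latent TGF-beta binding proteins split: Ltbp2, which does not bind latent TGF-beta although it shares the name, rose by 1.01 ± 0.03 and Ltbp1 by 0.44 ± 0.03, while Ltbp4 and Ltbp3 were lower, at -0.69 ± 0.03 and -0.23 ± 0.04. The microfibril protein Fbn1 rose by 0.32 ± 0.02, its relative Fbn2 was at -1.17 ± 0.05, and the integrin chains Itgb1 and Itgav rose by 0.43 ± 0.01 and 0.37 ± 0.02. The protease Plau was at -1.14 ± 0.08 and Thbs1, an activator of latent TGF-beta, at -0.21 ± 0.02. All of these but Pcsk6 and Pcsk7 passed the edgeR test.

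Of 28 extracellular antagonists and modulators, 22 were tested, with 4 higher, 11 lower and 7 not called, and a median log2 fold change of -0.22 against 0.00 over all ORFs tested. The follistatins, which trap activins, were among those that rose. Fst went from a mean of 16.6 CPM to a mean of 52.0 CPM (log2 fold change 1.65 ± 0.09, edgeR adjusted p = 2.9e-16) and Fstl3 from 14.4 and 13.6 to 24.7 and 26.3 CPM (0.87 ± 0.11, adjusted p = 1.1e-07). Follistatin and both activin beta chains thus rose in the same libraries. The other members that rose were Dcn, a matrix proteoglycan that binds TGF-beta and is also a fibroblast marker, at 0.70 ± 0.01, and the protease Htra1 at 0.55 ± 0.03. Those that fell with the smallest p were Fmod, a proteoglycan that binds TGF-beta, at -2.55 ± 0.05, the BMP co-receptor Rgma at -2.17 ± 0.11, Vasn, a TGF-beta binding protein, at -0.40 ± 0.05, and the protease Htra3 at -0.49 ± 0.12. The BMP antagonist Chrd was not called, at -0.48 ± 0.20 (adjusted p = 0.055).

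Of 21 Smads and regulators, 16 were tested, with 7 higher, 1 lower and 8 not called. Smad2 rose by 0.20 ± 0.07 (edgeR adjusted p = 0.022), and Smad3, Smad1, Smad5 and Smad7 were not called, at -0.02 ± 0.08, 0.07 ± 0.08, -0.07 ± 0.10 and -0.04 ± 0.15. The members that rose with the smallest p act against Smad signalling: the corepressors Skil at 0.96 ± 0.05 and Tgif1 at 0.39 ± 0.07, the ubiquitin ligase Smurf2 at 0.54 ± 0.07 and Pmepa1 at 0.77 ± 0.13. Tab1, an adaptor of the kinase Map3k7, was lower at -0.46 ± 0.11. Smad4 and Smad9 had 0 counts in every library, as did Map3k7, and their levels were not measured here.

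Genes known to be induced by TGF-beta moved in both directions. Of 21 tested, 12 were higher, 7 lower and 2 not called, with a median log2 fold change of 0.65. Timp1 (1.73 ± 0.03), Cyr61 (0.92 ± 0.02) and Fn1 (0.79 ± 0.01) rose, while the matrix genes Col3a1 (-1.72 ± 0.01), Eln (-1.19 ± 0.03), Postn (-1.06 ± 0.01) and Col1a1 (-0.59 ± 0.01) fell, of which Col3a1, Postn and Col1a1 are also fibroblast markers. Of 10 BMP-induced genes tested, 4 were higher (Id1 at 0.79 ± 0.04, Id4 at 0.67 ± 0.15, Hamp at 0.50 ± 0.03 and Id3 at 0.19 ± 0.04), 2 lower (Id2 at -0.91 ± 0.06 and Atoh8 at -0.31 ± 0.12) and 4 not called. These genes answer to many signals, and whether a ligand here acts on them was not tested.

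**Figure D5:**
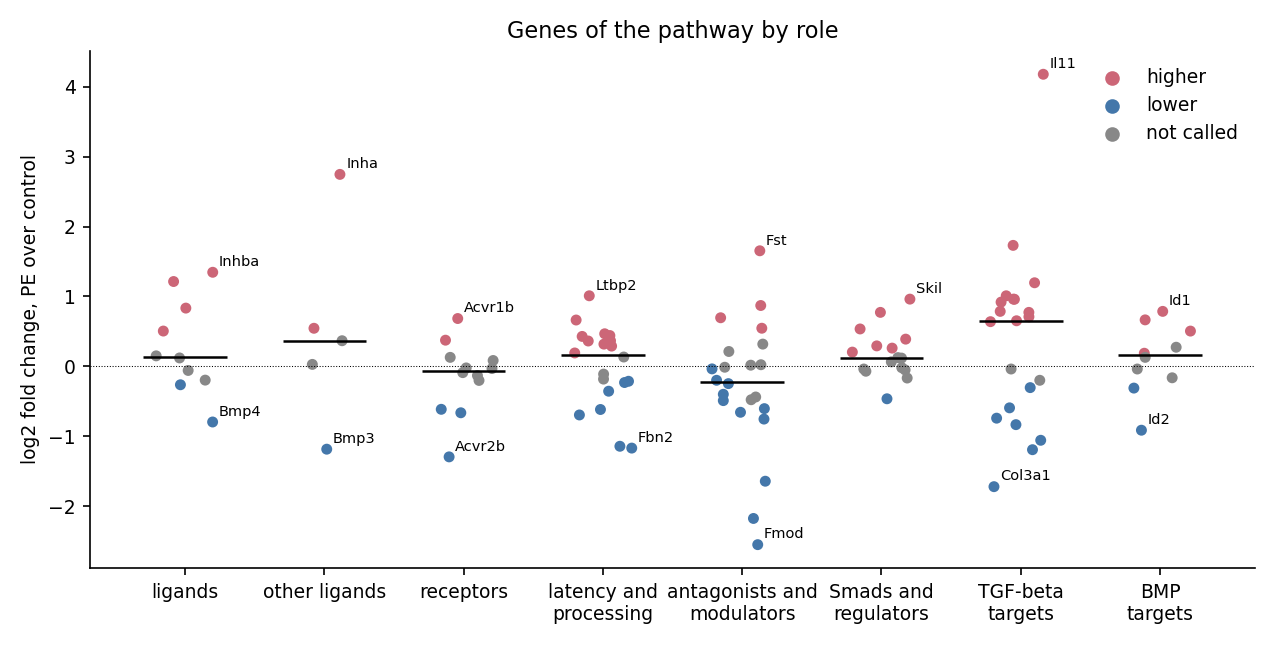
Log2 fold change of PE over control for each tested gene by role in the pathway, coloured by the edgeR call, with the median of each list as a line. Every role held both higher and lower genes, and the medians ran from -0.22 for antagonists and modulators to 0.65 for TGF-beta targets, whose highest point, Il11, had only 4 and 1 control counts.

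The ligand counts rested on footprints that behaved like those of other ORFs. The annotated ligand ORFs had 1.06 to 1.18 counts per P-site, and 77.3% to 88.3% of their P-sites lay in frame, against 84.7% of the 64444083 P-sites over all ORFs. No ORF of another gene lay within the span of any of the 10. In the authors' deposited table, 5 of the 10 annotated ligand ORFs passed an adjusted p of 0.05, with 4 higher and 1 lower, against 25.8% of the 13269 ORFs that have an adjusted p there. The difference from the count above was Tgfb3, whose adjusted p in the authors' deposited table was 0.23.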

How the data were processed

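Ribosome footprints were sequenced from rat cardiomyocyte cultures, 2 libraries with PE and 2 without, grouped by sample title, because the labels' treatment text names PE for all 4. The submitters' processing notes name the build Rnor_6.0 and the tools STAR 2.4.2a, Bowtie 1.1.2 and cutadapt 2.0. For the ORF caller and the counting program, the entry is "not given in the sources used here". Raw whole-number counts per ORF were deposited by the authors. Per the file headers, a further table holds the authors' own comparison as log2 fold changes and p-values, with ORF classes, coordinates and P-sites by frame pooled over libraries.

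Counts were filtered with filterByExpr, scaled by TMM (factors 0.982 to 1.02) and tested with edgeR 4.0.16 in R 4.3.3 (robust quasi-likelihood, all 4 libraries, no replicate term), a step also tested on simulated data. The chi-square per degree of freedom between replicates was 1.61 (control) and 1.60 (PE), above sampling noise. Pairs of an upstream and an annotated ORF with mean counts of at least 10 were tested as an interaction with a library term. Standard errors are log2 fold changes divided by the root of the F statistic. DESeq2 1.42.0 and limma 3.58.1 were used for alternatives and as a dependency. Alternatives were other scalings, no filter, DESeq2, a replicate block, a length correction and each library left out.

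All ligand ORFs are named, with up to 4 genes per direction and list by smallest p, and genes that pair with a ligand described; a gene that the rule names is not reported here. The ligands and lists were chosen with earlier results of these data known. The table's ORFs with 0 counts and P-sites, such as Smad4, could not be tested. Sequences came from RefSeq windows of GRCr8.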

Additional observations from a re-analysis of the deposited data

Results flagged for a closer look

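The overlapping upstream ORF of Bmp4, 51 nucleotides long, was listed with 81 P-sites pooled over libraries, 61.7% of them in its own frame, but with 0 counts in all 4 libraries. It stands out because a signal appears in a column that the comparisons do not use while the counted value is 0. Its level was not compared between control and PE, and the reason for the gap between P-sites and counts was not tested.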

How the results depend on the processing

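Tgfb2, Inhba, Inhbb, Bmp2 and Bmp4 passed the threshold with the same direction under all 10 alternatives run, with log2 fold changes of 0.79 to 0.86, 1.23 to 1.48, 1.00 to 1.49, 0.38 to 0.65 and -0.98 to -0.63. Over the annotated ligand ORFs and the Bmp2 upstream ORF, 103 values kept direction and call, 4 lost the call, all of Tgfb3, 1 gained it, Bmp6 with library totals, and 2 changed sign. DESeq2 called 1724 ORFs higher and 1722 lower, against 2696 and 2690, and 1 ligand lower instead of 2. With 1 library left out, 2231 to 2351 ORFs were higher and 2292 to 2403 lower, 4 ligands were higher in each case and 1 to 2 lower; the lone library was then assumed to vary like the other group. With a library left out, values that changed sign ranged from -0.17 to 0.076 for Gdf15 (positive without control replicate 2), -0.26 to 0.47 for Bmp10 (negative without PE replicate 2), -0.098 to 1.16 for the Tgfb3 upstream difference (negative without control replicate 1) and -1.03 to 0.12 for the Inhba one (positive without control replicate 2), none of them called. The Bmp2 upstream difference ranged from 1.11 to 1.51 with a library left out, and its call differed between those fits. It was 1.29 without the library term, where it passed, and 1.29 with a count minimum of 5, where it did not. A replicate block gave 2721 higher and 2714 lower ORFs and changed no ligand call. The replicate differences of control and PE correlated at 0.0124 over 3212 ORFs with a mean CPM of at least 50. Replicates differed little, so this value cannot tell whether libraries of the same number share a culture, which the labels leave unsaid. The causes of these shifts were not tested. Depth limits Bmp10, Inhbb and the upstream ORFs most.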

Other observations

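Upstream ORFs were also listed for other genes of the pathway, 23 in all, of which 15 were tested, 5 were higher, 1 lower and 4 had 0 counts in every library. Over all ORFs tested, 21.4% were higher and 21.3% lower. The upstream ORF of Furin had 11 and 14 counts in control and 31 and 24 in PE (log2 fold change 1.21, edgeR adjusted p = 0.015). Of 3 upstream ORFs of Bmpr2, 1 had 27 and 25 against 39 and 56 and was higher (0.94, edgeR adjusted p = 0.012), while the others, with 35 and 29 against 31 and 38 (0.18, adjusted p = 0.69) and 10 and 5 against 20 and 13 (1.19, adjusted p = 0.069), were not called. The upstream ORF of Skil had 29 and 27 against 58 and 43 (0.92, adjusted p = 0.011). Only 57.1% of its P-sites were in frame, against 84.7% over all ORFs. The overlapping upstream ORF of Inha had 2 and 6 against 30 and 24 (2.80, adjusted p = 5.1e-05), but with 0.258 counts per P-site and 54.2% of its P-sites in frame. The upstream ORF of Dcn was higher by 0.24 (adjusted p = 0.012). The upstream ORF of Hjv, a BMP co-receptor, had 22 and 22 against 11 and 2 and was lower (-1.66, adjusted p = 0.012). In each of these genes the annotated ORF changed in the same direction.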
